A study of Mus musculus with 3 samples.

Results

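Iron and haem handling was read here through 8 genes, Hmox1, Blvrb, Fth1, Ftl1, Slc40a1, Trf, Tfrc and Slc11a1, taken by symbol from the 32285 genes of the count tables, and each symbol matched a single gene. The counts came from 3 single-cell RNA libraries of heart immune cells sorted on the leukocyte surface protein CD45 and prepared with 10x Genomics 3' chemistry (v3.1). All mice were C57BL/6J animals aged 8 to 9 weeks, and their groups carry the names Sham, MI and MI-E. The series title gives MI as myocardial infarction. The surgery text, which describes a thoracotomy and ligation of the LAD (left anterior descending coronary artery) under isoflurane, is identical for the 3 groups, Sham included, so the operation each group received is known only from its name. MI-E is not expanded in the labels, and neither the interval after surgery nor the number of hearts in a library is stated. Each group is 1 library. No difference between groups could therefore be set against replicate error, no test was made, and the 95% intervals given are exact intervals for counting error alone.

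Macrophages take up dying red cells, free haemoglobin and haem. Haem oxygenase 1, encoded by Hmox1, opens the haem ring and frees its iron, giving biliverdin and carbon monoxide, and biliverdin reductases make bilirubin from biliverdin. The freed iron is stored in ferritin, a shell of heavy (Fth1) and light (Ftl1) chains, or leaves the cell through ferroportin (Slc40a1), the known cellular iron exporter. Transferrin (Trf) carries iron in plasma and enters cells through the transferrin receptor (Tfrc), while Slc11a1 (Nramp1) moves iron out of the phagosome. Cells also set part of this system after transcription, since iron regulatory proteins bind hairpins called iron-responsive elements when iron is scarce. Binding in the 5' untranslated region (UTR) blocks translation, and binding in the 3' UTR protects the transcript from decay.

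The elements in the members' own transcripts are shown because ferritin, ferroportin and transferrin receptor transcripts are the textbook cases of this control. They were found by letters and pairing: an unpaired C, a 5-base stem, the loop CAGTGN with A, C or T at N, and a matching stem, G-T pairs allowed. Each line runs 5' to 3' as DNA on the gene's strand (GENCODE M21, GRCm38), with the unpaired C and the loop in capitals.
Fth1 5' UTR, chr19:9982733-9982760, + strand: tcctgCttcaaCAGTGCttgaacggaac
Ftl1 5' UTR, chr7:45459779-45459806, - strand: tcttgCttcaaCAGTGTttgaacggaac
Slc40a1 5' UTR, chr1:45925465-45925492, - strand: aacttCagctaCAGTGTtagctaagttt
Tfrc 3' UTR element 1, chr16:32631220-32631247, + strand: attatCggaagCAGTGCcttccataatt
Tfrc 3' UTR element 2, chr16:32631599-32631626, + strand: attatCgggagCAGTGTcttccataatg
Tfrc 3' UTR element 3, chr16:32631664-32631691, + strand: tatatCggagaCAGTGAtctccatatgt
Tfrc 3' UTR element 4, chr16:32631711-32631738, + strand: attatCgggaaCAGTGTttcccataatt
The pattern was present in the 5' UTR of 23 of 21901 coding genes (0.105%) and in the 3' UTR of 100 (0.457%), so 3 of the 23 were members. Hmox1, Blvrb, Trf and Slc11a1 had no match. UMI counts measure transcripts, and translation of Fth1, Ftl1 and Slc40a1 was not measured. The antioxidant response motif TGACNNNGC, searched on both strands, was in 12.4% of 32851 RefSeq promoters (GRCm38.p6, 250 bases before to 50 after the start) and in none of the 8 promoters listed for 5 of the members. With only 8 promoters, finding none is not far from the 12.4% share, and bases outside this window were not searched. It therefore cannot show that these members lack the motif. Promoters of Hmox1, Slc40a1 and Trf were not used here.

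After filtering, 10079 Sham, 8169 MI and 11004 MI-E cells remained, from libraries of 41140109, 98814001 and 104562768 UMIs (unique molecular identifiers, each standing for 1 captured transcript). Cells were clustered and named by marker lists, giving monocyte-macrophage cells (3901 in Sham, 5177 in MI, 4238 in MI-E), neutrophils (420, 361 and 2981), dendritic cells, B, T and NK cells, and, in spite of the CD45 sort, endothelial cells and fibroblasts. MI held only 48 B cells and 35 NK cells, under the 50 needed for a level. Names were rebuilt here, so a difference from the study can come from them, and 1203, 1951 and 2281 cells stayed unnamed. Pairs of libraries shared 26 to 45 cell barcodes, at most 0.396% of the smaller library. Most Sham monocyte-macrophage cells were in cluster 4, resident macrophage-like, and cluster 2, MHC class II-like, whereas cluster 21, lipid-handling macrophage-like, held the largest number in MI and MI-E. Sham neutrophils were in cluster 3 and those of MI and MI-E in clusters 18 and 20. A class-level difference between libraries is therefore also a difference in which clusters make up the class.

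Levels are CPM, the gene's UMIs divided by all UMIs summed over a class in 1 library and scaled to 1e6. A gene counted as higher or lower in a comparison when its CPM differed at least 1.5-fold and its mean over the pair of libraries was at least 5 CPM. In monocyte-macrophage cells, Fth1 and Slc40a1 were higher and Trf and Tfrc lower in MI than in Sham, and the other 4 members differed by less. Of 8475 genes measured in this comparison, 26.6% were higher and 18.2% lower, so the members' counts of 2 and 2 are near the background. The members' median log2 ratio was 0.08, beside 0.14 over all measured genes. Between MI-E and MI none of the 8 reached 1.5-fold in this class, where 4.99% of all measured genes were higher and 4.97% lower. MI-E against Sham gave 2 members higher, the same as in MI, and 3 lower, Blvrb with Trf and Tfrc, against 27.6% and 18.1% of all measured genes. MI and MI-E share the Sham library, so these are not independent comparisons.

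**Figure D1:**
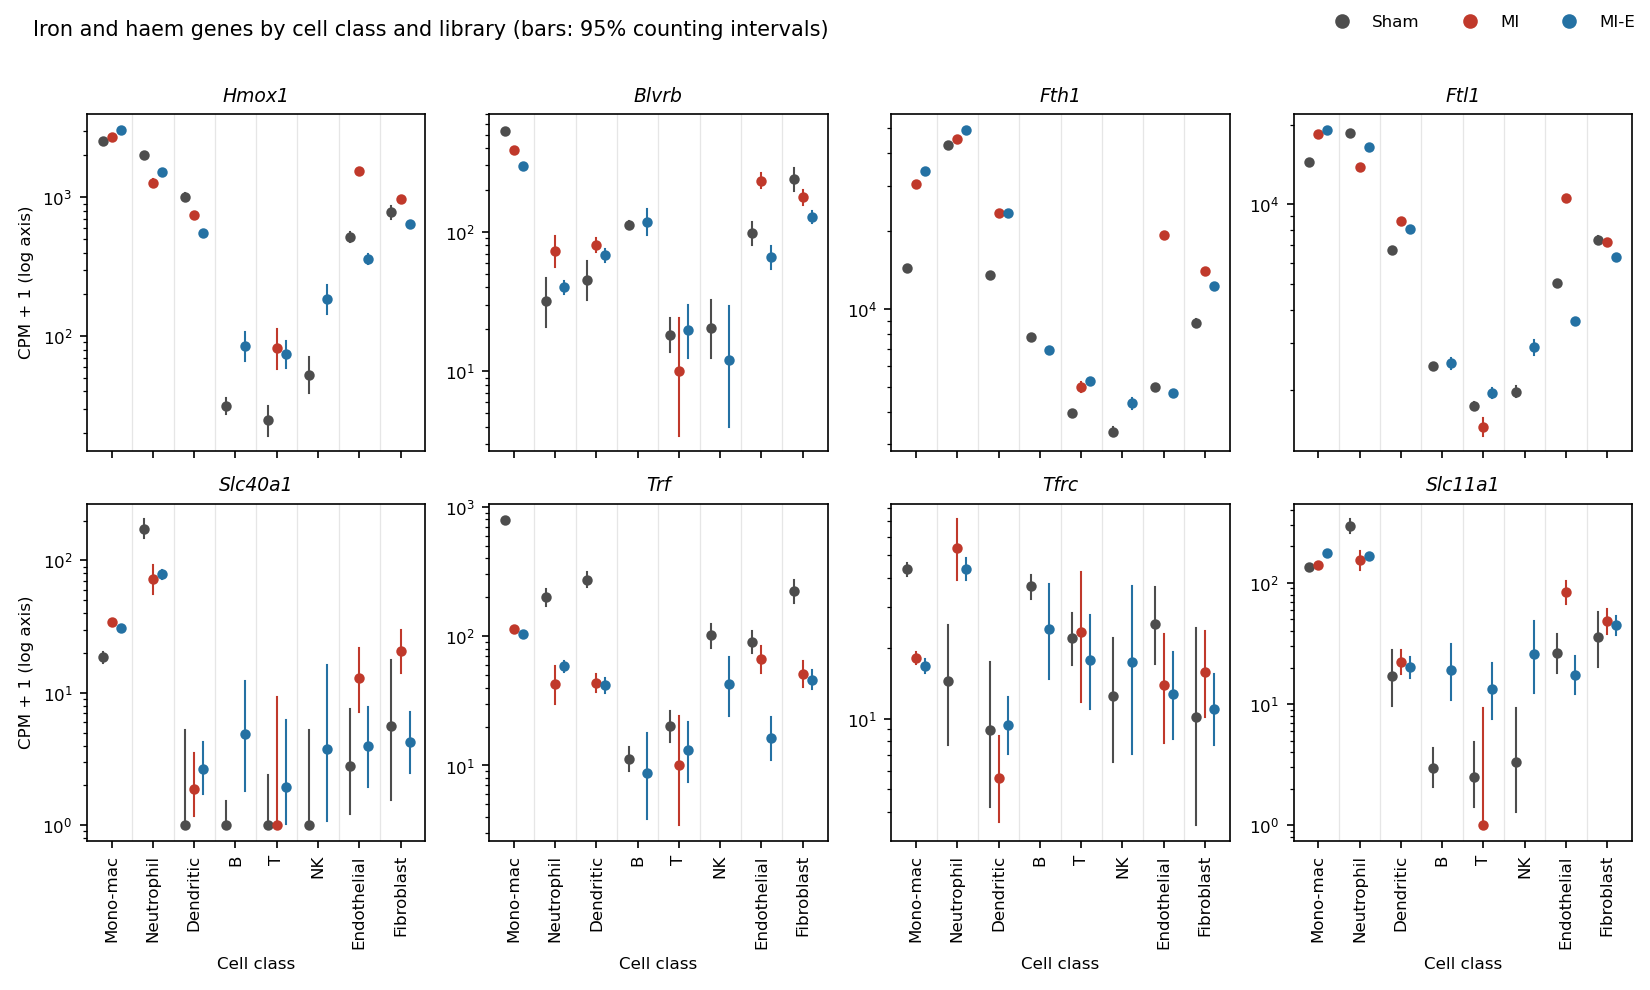
CPM + 1 (log axis) of the 8 genes in 8 cell classes, 1 point per library (Sham grey, MI red, MI-E blue) with 95% counting intervals; B and NK cells of MI are left out for lack of cells. Hmox1 and Blvrb were highest in monocyte-macrophage cells, Fth1 and Slc40a1 in neutrophils, and Trf was highest in Sham in every class (not in T cells when libraries were clustered alone).

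The haem breakdown genes were led by Hmox1 (chr8:75093621-75100589, + strand). Its level in monocyte-macrophage cells was 2522 CPM in Sham (interval 2501 to 2543), 2710 in MI (2697 to 2723) and 3058 in MI-E (3042 to 3074). These 3 values were the highest of all 22 class and library pairs with enough cells and stood within 1.21-fold of each other. Monocyte-macrophage cells held 89.9% of all Hmox1 UMIs of the Sham library, 73% in MI and 62.6% in MI-E, where unnamed cells held 24% and 29.7%. After each cell was thinned to 1500 UMIs, which left out 102, 76 and 21 shallower cells, 81.3%, 80.4% and 80.8% of these cells had an Hmox1 UMI in Sham, MI and MI-E, against 91.8%, 97.2% and 97.7% unthinned. In Sham T cells, which lack the haem-clearing role, the thinned share was 1.95% (interval 1.04 to 3.31).

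Neutrophils ranked next, with 1999 CPM in Sham, against 1273 in MI and 1528 in MI-E. The MI value was 1.57-fold below Sham (interval 1.45 to 1.7), and the MI-E value lay between the other 2. Endothelial cells of MI (1557 CPM, 1481 to 1636) and neutrophils of MI-E (1501 to 1555) had overlapping intervals in the order of levels, as did Sham dendritic cells (1009) and MI fibroblasts (972.1). The endothelial class carried 514.4 CPM in Sham and 358.6 in MI-E, and its summed macrophage markers (14 genes, all detected) moved with it, at 4764 CPM in Sham, compared with 11240 in MI and 1685 in MI-E. Lymphocyte levels were low, 23.7 to 51.9 CPM in Sham and 73.1 to 184.3 in MI-E. Macrophage markers were also higher in MI-E lymphocytes, at 2699 against 1347 CPM in B cells and 1224 against 604.3 in NK cells. The part of macrophage RNA in these endothelial and lymphocyte values was not tested.

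The nearly level class values of Hmox1 hid differences in both directions inside the class. In cluster 13, resident macrophage-like, Hmox1 was 501.4 CPM in 220 Sham cells, 1984 in 302 MI cells and 2614 in 161 MI-E cells. The thinned share of cells with a UMI there went from 24.6% in Sham to 72.8% in MI. In cluster 4, the other resident-like cluster, it was 2233 CPM in 2434 Sham cells and 1146 in only 57 MI cells. Classical monocyte-like cells of cluster 11 had 5613 CPM in Sham, against 3533 in MI and 3522 in MI-E, and nonclassical monocyte-like cells of cluster 15 had 6916 in Sham and 4344 in MI-E. Monocytes thus held the highest Hmox1 levels in Sham, and cluster 13 of Sham the lowest among monocyte-macrophage clusters.

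Heat shock genes that respond to handling of cells moved with part of this. Hspa1a, an inducible Hsp70 gene, was at 3726 CPM in monocyte-macrophage cells of Sham, 106.0 in MI and 159.2 in MI-E, and Hspa1b at 2399, 44.2 and 65.4. Within Sham, Hspa1a was 5235 CPM in cluster 4 and 985.3 in cluster 13, the same order as Hmox1. In the monocyte clusters of Sham, where Hmox1 was highest, Hspa1a was 264.8 CPM in cluster 11 and 135.9 in cluster 15, below both resident-like clusters. Across libraries of cluster 13 the orders differed, since Hspa1a was 985.3 CPM in Sham, compared with 405.8 in MI and 886.5 in MI-E. Its part in the Hmox1 levels was not tested.

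Blvrb (chr7:27447978-27466144, + strand), a biliverdin and flavin reductase, was also highest in monocyte-macrophage cells. It stood at 532.9 CPM in Sham (523.2 to 542.7), 385.0 in MI (380.1 to 390.0) and 294.6 in MI-E (289.7 to 299.5). The step from Sham to MI was 1.38-fold down (1.35 to 1.42), short of the criterion, and MI-E was 1.81-fold below Sham (1.76 to 1.85). Both resident-like clusters had the top levels, 640.8 and 684.7 CPM in Sham and 649.0 and 636.0 in MI, while classical monocyte-like cells had 150.2, 158.9 and 151.4 in Sham, MI and MI-E. The values inside these clusters thus differed by far less than the class values. Averaged over clusters 11, 13 and 15, which held at least 50 cells of Sham and MI-E, the log2 ratio for MI-E over Sham was 0.14, against -0.85 for the class.

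Outside macrophages, B cells had more Blvrb than T cells, 110.8 CPM (103.2 to 118.8) against 17.3 (12.7 to 23.1) in Sham. Their summed macrophage markers were 1347 and 491.3 CPM. Neutrophil Blvrb was low, at 30.7 CPM in Sham, against 71.6 in MI and 39.2 in MI-E. These rest on 25, 60 and 315 UMIs, and the MI to Sham ratio of 2.33 has an interval of 1.44 to 3.88. Fibroblasts (238.4 CPM in Sham) and MI endothelial cells (232.9) came after the macrophages, with overlapping intervals.

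Ferritin transcripts were among the most abundant of all. Fth1 (chr19:9980598-9985098, + strand), whose chain oxidises iron as it enters the shell, was at 14341 CPM in Sham monocyte-macrophage cells, 30276 in MI and 34203 in MI-E. It was 2.11-fold higher in MI than in Sham (interval 2.1 to 2.12) and 2.39-fold higher in MI-E. By UMI count it ranked 7th of all genes in this class in Sham and first in MI and MI-E. Ftl1 (chr7:45457944-45459884, - strand), the chain that helps the iron core to form, differed less, at 14389 CPM in Sham, compared with 18406 in MI and 19119 in MI-E. Ferritin together made 2.87% of the class's UMIs in Sham, against 4.87% in MI and 5.33% in MI-E.

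At class level the balance between the chains shifted with it. The ratio of Fth1 to Ftl1 was computed for whole classes only, so it also reflects which clusters fill the class. UMIs count 3' ends, so transcript length does not enter this ratio. Fth1 to Ftl1 was 0.997 in Sham (0.992 to 1), 1.64 in MI (1.64 to 1.65) and 1.79 in MI-E (1.78 to 1.79). Dendritic cells showed a like order from 2.02 to 2.69 and 2.92, with Fth1 1.72-fold higher in MI (1.69 to 1.76). Ftl1 shares reads with pseudogenes, and Ftl1-ps1 was listed at 100.2, 143.4 and 198.3 CPM in monocyte-macrophage cells. How many Ftl1 reads this affects was not measured, so the absolute Fth1 to Ftl1 ratios are uncertain.

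**Figure D2:**
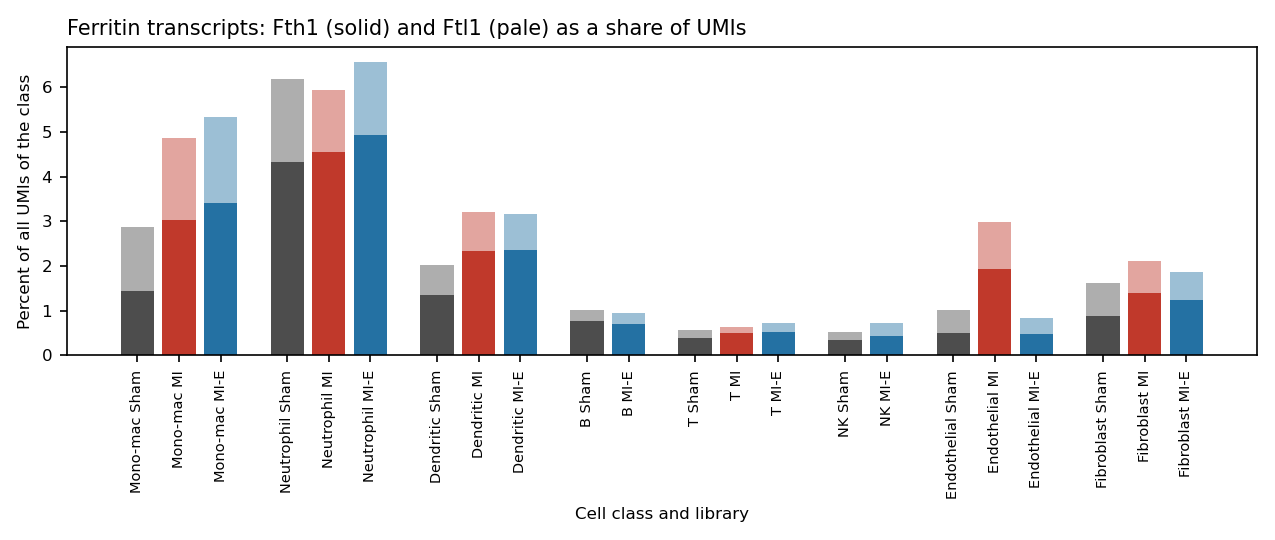
Stacked bars of Fth1 (solid) and Ftl1 (pale) as a percent of all UMIs of each class in each library; the B and NK cells of MI are left out. Neutrophils had the largest ferritin share in each library, 6.17% in Sham, and the monocyte-macrophage share was 2.87% in Sham against 4.87% in MI.

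Neutrophils had the highest Fth1 of all classes, 43189 CPM in Sham, compared with 45449 in MI and 49265 in MI-E, a range of 1.14-fold. Their Ftl1 was 18552, 13866 and 16441 CPM, so the chain ratio was 2.33 in Sham and 3.28 in MI. T and NK cells had the lowest Fth1, 3960 and 3348 CPM in Sham. In MI endothelial cells Fth1 was 19261 CPM against 4999 in Sham and 4716 in MI-E, beside the macrophage markers given above.

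Where clusters could be matched, the ferritin difference was uneven. Cluster 13 held 11838 CPM of Fth1 in Sham and 25279 in MI, and 10155 against 16876 of Ftl1. Cluster 4 held 11711 and 12063 of Fth1, and cluster 11 held 27694 and 32716. Over these 3 clusters the mean log2 ratio of Fth1 was 0.46, below 1.5-fold, against 1.08 for the class. The highest Fth1 of the plotted monocyte and macrophage clusters, 43557 CPM, was in MI-E cells of cluster 22, which was led by Arg1 and Cxcl3 and kept out of the class because Areg, listed as a marker of innate lymphoid cells, led it too. The same cluster in MI had 35670 CPM, and lipid-handling macrophage-like cells of cluster 21 had 35696 in MI and 37421 in MI-E.

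**Figure D3:**
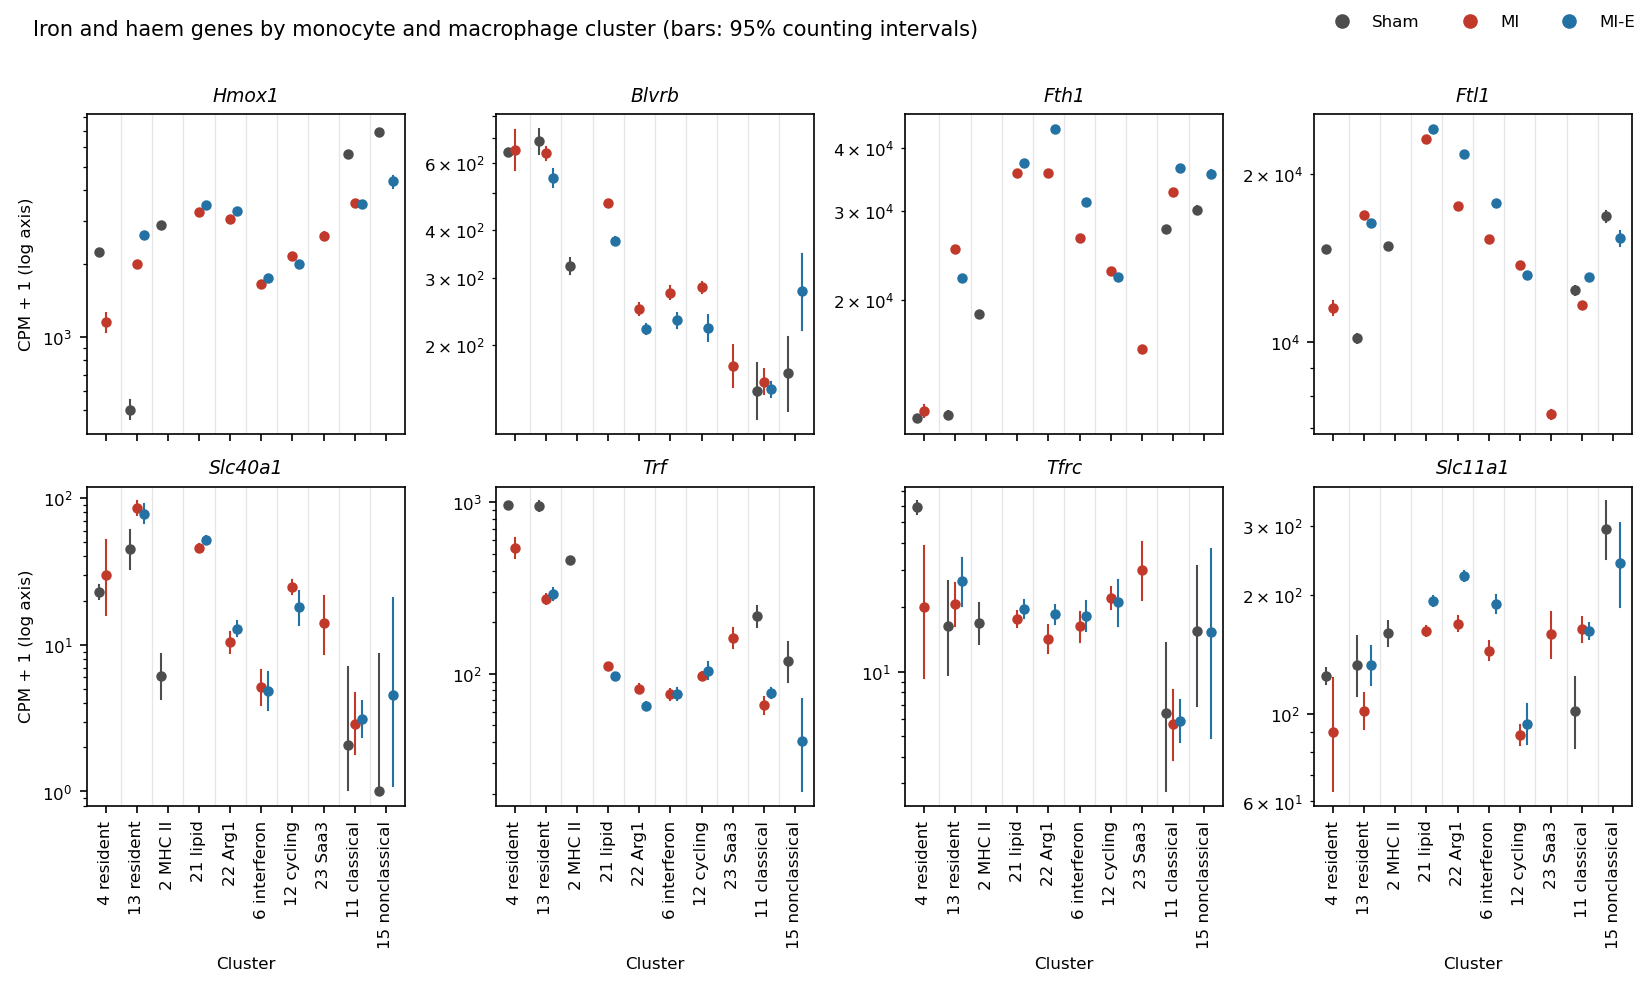
CPM + 1 (log axis) of the 8 genes in 10 monocyte and macrophage clusters, 1 point per library with at least 50 cells in the cluster, with 95% counting intervals. Hmox1 of Sham was lowest in cluster 13 and highest in cluster 15, Slc40a1 was high in clusters 13 and 21, and Trf of Sham was 963.4 and 952.4 CPM in clusters 4 and 13.

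The exporter Slc40a1 (chr1:45908068-45926523, - strand) was rare and narrowly placed. Neutrophils had the highest levels, 173.3 CPM in Sham (145.9 to 204.4), 71.6 in MI (54.6 to 92.1) and 78.0 in MI-E (72.0 to 84.3). Monocyte-macrophage cells had 17.7 CPM in Sham (15.9 to 19.5), 33.1 in MI (31.6 to 34.5) and 29.8 in MI-E (28.3 to 31.5). No UMI was found in Sham B, T, NK or dendritic cells. In 2966 Sham B cells a level of 3 counts would be 0.421 CPM, and the exact upper bound for the count of 0 is 0.518 CPM. Both the neutrophil and the macrophage levels stood far above these values.

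The direction for Slc40a1 was opposite in the 2 classes. In MI the neutrophil level was 2.42-fold below that of Sham (interval 1.78 to 3.33), on 60 and 141 UMIs, while monocyte-macrophage cells were 1.87-fold higher (1.68 to 2.09), on 2002 and 382. With each library clustered on its own the macrophage log2 ratio turned from 0.87 to -0.37, so this direction rests on the clustering. MI-E over Sham in macrophages (1.69-fold) fell below 1.5-fold in 6 of 10 alternatives. The neutrophil call held in all 7 alternatives run for it.

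By cluster, Slc40a1 in macrophages was 44.3 CPM in cluster 13 of Sham, 84.4 in MI and 77.4 in MI-E, and 45.0 and 51.1 in cluster 21 of MI and MI-E. In classical monocyte-like cells it was only 1.08, 1.87 and 2.13 CPM, and it was at 0 UMIs in nonclassical monocyte-like cells of Sham. Sham held only 145 and 133 cells of these clusters, so its values there are bounded only loosely, and the 0 does not show absence. Interferon-led cluster 6 had 4.13 and 3.85 CPM in MI and MI-E. The clusters named here thus differed more than the libraries did inside a cluster. This was not a plain split of macrophages from monocytes, since cluster 6 scored best on the macrophage markers. Among neutrophils, cluster 3 of Sham had 174.7 CPM, cluster 18 had 112.7 in MI and 100.9 in MI-E, and cluster 20 had 17.2 and 25.3. No neutrophil cluster held 50 cells of both Sham and MI, so the Sham to MI difference could not be read within a cluster.

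Iron delivery was read from Trf and Tfrc. Trf (chr9:103204001-103230444, - strand) showed the widest difference of the members in monocyte-macrophage cells, in both comparisons with Sham. Monocyte-macrophage cells had 792.3 CPM in Sham (780.5 to 804.2), 112.6 in MI (109.9 to 115.3) and 102.5 in MI-E (99.6 to 105.4). That is 7.04-fold lower in MI (6.84 to 7.24) and 7.73-fold lower in MI-E (7.49 to 7.98). The thinned share of cells with a Trf UMI was 60.9% in Sham, against 15.4% in MI and 12.3% in MI-E, and in Sham B cells 1.28% (0.893 to 1.78). For MI over Sham its log2 ratio stood at the 1.12 percentile of all measured genes.

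The lower Trf was seen outside macrophages too. Neutrophils had 199.1 CPM in Sham, compared with 41.8 in MI and 57.3 in MI-E. Dendritic cells had 273.2, 42.6 and 40.7, and fibroblasts 222.4, 50.2 and 45.2. In each of the 8 classes Trf was lower in MI-E than in Sham, with overlapping intervals in B cells (10.2 and 7.73 CPM) and T cells (19.2 and 12.2), and the T cell ratio changed sign with libraries clustered alone. Summed macrophage markers in neutrophils were 3093 CPM in Sham, against 4382 in MI and 4809 in MI-E. Macrophages themselves had less Trf in MI and MI-E, so these sums cannot show their part in neutrophil Trf. That part was not tested. In fibroblasts these markers were 13575, 8508 and 7125 CPM, and their part in the fibroblast Trf was not tested. The heat shock gene Hspa1a was also lower in MI-E than in Sham in all 8 classes, at 29.7 against 50.4 CPM in neutrophils, 108.7 against 362.0 in dendritic cells, 177.3 against 1772 in fibroblasts and 18 against 109.7 in B cells. Its part in the Trf levels was not tested.

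Trf was lower in matched clusters as well. Clusters 4 and 13 of Sham had 963.4 and 952.4 CPM, and the same clusters in MI had 540.8 and 271.9. Classical monocyte-like cells had 215.1 CPM in Sham, compared with 64.4 in MI and 75.9 in MI-E. All 10 alternatives kept Trf at least 1.5-fold lower in both comparisons with Sham, with log2 ratios from -2.93 to -1.45 for MI.

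Tfrc (chr16:32608920-32632794, + strand) was a low-count gene with opposite directions in 2 classes. In monocyte-macrophage cells it was 42.6 CPM in Sham (39.9 to 45.5), 17.1 in MI (16.1 to 18.2) and 15.8 in MI-E (14.7 to 17), or 2.5-fold lower in MI (2.28 to 2.73). In neutrophils it was 13.5 CPM in Sham (6.75 to 24.2), 52.5 in MI (38.1 to 70.5) and 42.8 in MI-E (38.4 to 47.6). The neutrophil ratio of 3.88 rests on 11 Sham UMIs and has an interval of 1.97 to 8.33. Sham B cells followed the macrophages with 35.8 CPM, and T cells had 21.1.

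The Sham level of Tfrc in macrophages came from 1 cluster. Cluster 4 had 57.9 CPM, whereas clusters 2 and 13 of Sham had 16.0 and 15.4, close to the 13.3 to 28.9 CPM seen in macrophage clusters of MI. Classical monocyte-like cells were at 5.40, 4.67 and 4.88 CPM. Averaged over clusters 4, 11 and 13, the log2 ratio of MI over Sham was -0.46. For MI-E over Sham the average over clusters 11, 13 and 15 was 0.18, opposite to the class value of -1.38. That set leaves out cluster 4, which held only 46 MI-E cells, so the 2 averages are not alike. Each cluster had equal weight, and no counting interval was taken for these averages. Neutrophil cluster 20 had 64.0 CPM in MI and 58.4 in MI-E, and cluster 3 of Sham 13 CPM.

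Slc11a1 (chr1:74375195-74386062, + strand), the phagosomal metal transporter, was shared by neutrophils and macrophages. Neutrophils had 295.0 CPM in Sham (258.9 to 334.8), 152.7 in MI and 166.3 in MI-E, and MI stood 1.93-fold below Sham (1.55 to 2.41). Monocyte-macrophage cells had 133.7 CPM in Sham, against 140.0 in MI and 174.6 in MI-E, within 1.31-fold of each other. The nonclassical monocyte-like cells had the most among monocyte and macrophage clusters, 292.8 CPM in Sham and 239.8 in MI-E, with overlapping intervals. B, T and NK cells of Sham were at 1.96, 1.5 and 2.31 CPM, on 14, 4 and 2 UMIs. In MI-E they were at 18, 12.2 and 24.8 CPM, on 14, 13 and 9 UMIs, past 1.5-fold above Sham in each of 7 alternatives, and MI T cells had no UMI. The NK ratio of 10.7 has a counting interval of 2.22 to 102.1. The summed macrophage markers of these lymphocytes were higher in MI-E as well (890.6 against 491.3 CPM in T cells, the others as given above), and their part was not tested.

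Taking the 8 genes in neutrophils, MI against Sham gave 2 higher, Blvrb and Tfrc, and 4 lower, Hmox1, Slc40a1, Trf and Slc11a1. Of 6658 genes measured there, 41.2% were higher and 17.3% lower. MI-E against MI gave 1 lower, Blvrb, beside 9.25% of genes higher and 15.8% lower. MI-E against Sham gave 1 higher and 3 lower, beside 36.4% and 17.8%. The neutrophil classes are shallow, with 813485 UMIs in Sham and 838264 in MI, and their summed neutrophil markers were 157626 CPM in Sham, compared with 51988 in MI and 64357 in MI-E. The part of this in the neutrophil ratios was not tested. In dendritic cells MI against Sham gave 2 higher, Fth1 and Blvrb, and 2 lower, Trf and Tfrc, beside 29.4% and 13.2% of genes. The Tfrc interval there, on 16 and 7 UMIs, spans no difference, and this call was lost in 3 of 7 alternatives. Blvrb lost its call with cells weighted equally (log2 ratio 0.46) and turned to -1.16 with libraries clustered alone, where Fth1 also fell short of 1.5-fold (0.52).

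**Figure D4:**
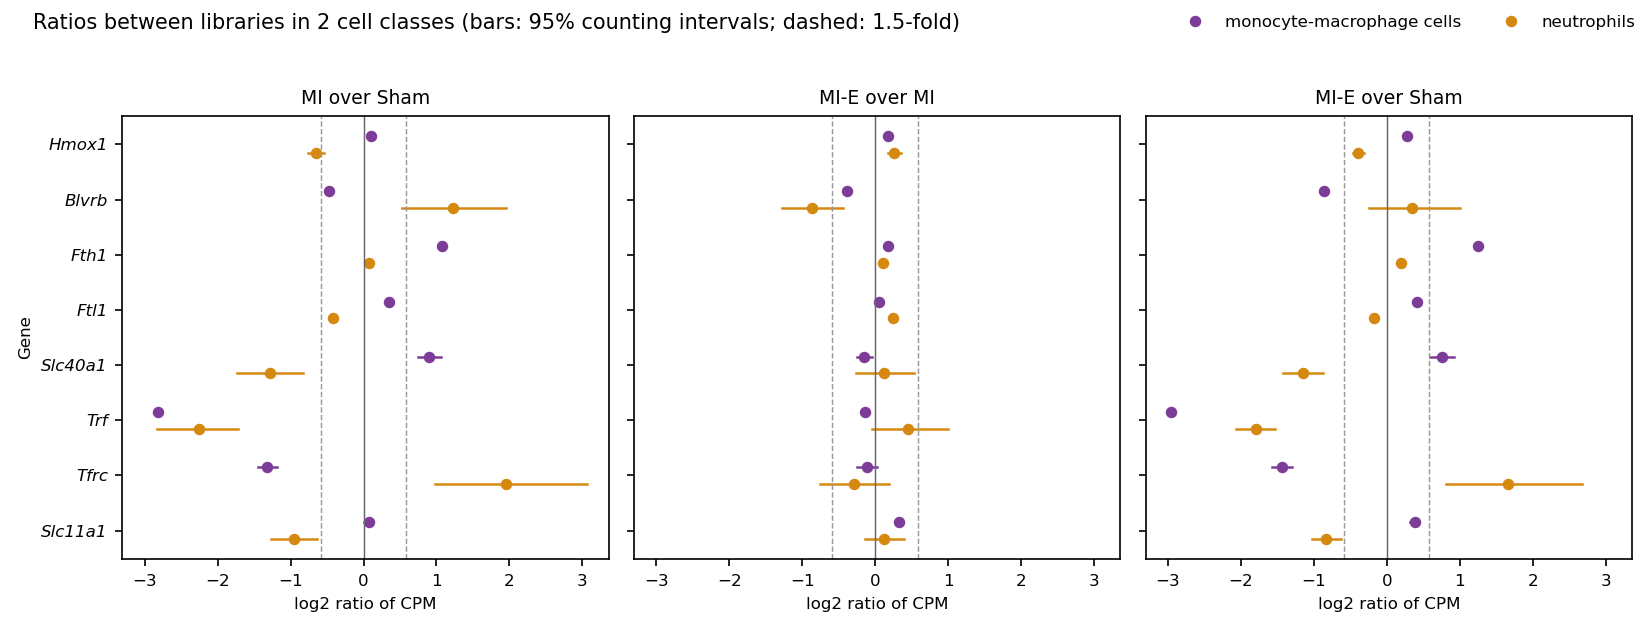
Log2 ratios of CPM between libraries for the 8 genes, in monocyte-macrophage cells (purple) and neutrophils (orange), with 95% counting intervals and dashed lines at 1.5-fold. Slc40a1 and Tfrc lie on opposite sides of 0 in the 2 classes for MI over Sham, Trf lies far to the left in both, and no purple point of MI-E over MI passes a dashed line.

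The members' profiles over classes were compared by the correlation of log2(CPM + 1) over 22 class and library pairs, among 5675 genes. These points share 3 libraries and their depth, and r is given as a description. Outside the 8 members, nearest to Hmox1 were Sirpa (r = 0.97), an inhibitory receptor of phagocytes, and Lipa (0.94), the lysosomal acid lipase. Blvrb was nearest to Apoe (0.92) and Fndc3a (0.89), and Fth1 to Gpr35 (0.95) and Ninj1 (0.94). Ftl1 was nearest to Lst1 and Cd14 (0.95 each), the latter a co-receptor for lipopolysaccharide. For Slc40a1 these were Pla2g7 and Mindy1 (0.93 each), for Trf Nptn (0.85) and Metrnl (0.83), and for Slc11a1 the complement receptor gene C5ar1 (0.97) and Bst1 (0.95). Tfrc was nearest to Gm20559 (0.87) and Trpm7 (0.73). Among the members, Hmox1 and Ftl1 had r = 0.95 and Slc40a1 and Slc11a1 0.90, while r of Tfrc with the others ran from -0.11 to 0.34.

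A list of 70 further genes of iron and haem handling placed the members in their pathway. In monocyte-macrophage cells 52 were measured for MI over Sham, 19 higher and 11 lower, with a median log2 ratio of 0.36, beside the 26.6% higher, 18.2% lower and median of 0.14 over all measured genes. Haem and haemoglobin uptake and export had 4 higher and 1 lower of 5 measured. Cd163, the haemoglobin scavenger receptor, went from 221.7 CPM in Sham to 26.3 in MI, 8.44-fold lower (7.97 to 8.94). Lrp1, the receptor for haemopexin-bound haem, went from 86.8 to 305.9 CPM, and Slc48a1, which carries haem out of the phagolysosome, from 42.6 to 130.8. Cd163 was among the genes that lead clusters 4 and 13 and Slc48a1 among those of cluster 21, so these differences also follow the clusters that fill the class. Cluster 4 held only 57 MI cells. Inside matched clusters Cd163 was 294.9 CPM in Sham and 495.1 in MI in cluster 4, opposite to the class. In cluster 13 it was 286.2 and 199.5. Lrp1 was higher in MI in both, at 75.1 and 175.5 CPM in cluster 4 and 158.6 and 247.7 in cluster 13, and Slc48a1 went from 64.9 to 117.9 in cluster 13 and from 46.4 to 55.3 in cluster 4.

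Iron uptake, reduction and export had 2 higher and 3 lower of 5 measured, beside 26.6% higher and 18.2% lower of all measured genes. The ferroxidase ceruloplasmin gene Cp was at 25.8 CPM in Sham and 2.31 in MI, and Slc11a2, the divalent metal transporter of endosomes, at 89.0 and 26.3. Lcn2, a siderophore-binding protein made in quantity by neutrophils, was at 20.1 and 6.09. These class differences were not seen in every matched cluster. Cluster 4 held only 57 MI cells, and clusters 11 and 13 only 145 and 220 Sham cells. Low values there rest on few UMIs, and no counting intervals were taken for them. Cp was 34.5 CPM in Sham and 43.3 in MI in cluster 4 and 21.6 and 20.3 in cluster 13. Slc11a2 was 84 and 38.5 CPM in cluster 4, 25.7 and 23.9 in cluster 13 and 11.9 and 19.6 in cluster 11, where Lcn2, at 23.8 and 67.2, was opposite to the class. In haem breakdown Por, the reductase that feeds electrons to haem oxygenase, was at 98.5 and 266.7 CPM, and at 43.2 and 147.2 in cluster 13 but 244.3 and 264.4 in cluster 11. Hmox2, the constitutive haem oxygenase, was at 131.6 and 111.2 CPM, under the criterion.

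Of 5 NRF2 targets measured outside iron handling, 3 were higher, beside 26.6% of all measured genes. Among them was Gclm, a subunit of the glutathione-making ligase, at 44.8 CPM in Sham and 149.1 in MI. Gclm was at 31.9 and 126.9 CPM in cluster 13 and at 117.8 and 114.3 in cluster 11. Nfe2l2, the gene of NRF2, was at 401.0 and 336.1 CPM. Of 8 transcription genes 1 was higher and 3 lower, beside 26.6% and 18.2% of all measured genes. Nr1h3, which encodes LXR-alpha, went from 3.84 to 25.0 CPM (6.51-fold, 5.22 to 8.22), and Bach1, a repressor of Hmox1, from 261.1 to 138.9. In cluster 13 Bach1 went the other way, with 82.4 CPM in Sham, against 124.4 in MI and 146.8 in MI-E, while in cluster 11 it was at 318.9 in Sham and 191.6 in MI. Beside the same shares, the mitochondrial iron and iron-sulphur cluster genes had 4 of 8 higher and none lower. Storage and chaperone genes had none higher and 1 of 4 lower, and lists this short were not compared with each other. The lower gene was Ncoa4, the receptor for ferritin breakdown, at 43.0 and 23.9 CPM. It was at 52.5 and 34.3 in cluster 13 and 14.1 and 13.1 in cluster 11, which held only 145 Sham cells.

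Between MI-E and MI, 5 of 51 measured genes of this list were higher and none lower, beside 4.99% and 4.97% of all measured genes. The highest were Lcn2, at 25.5 CPM in MI-E against 6.09 in MI (4.18-fold, 3.71 to 4.71), and the haptoglobin gene Hp, at 145.8 against 51.2. Slc7a11, the cystine transporter, followed at 248.0 against 131.2 and the haem exporter gene Flvcr1 at 20.4 against 13.2. The lowest, Cd163, Glrx5, Steap3 and Cpox, all stayed within 1.5-fold. Hp leads cluster 11, which held 1446 of the MI-E cells and 502 of the MI cells, and summed neutrophil markers in the class were 817.7 CPM in MI-E and 584.4 in MI, whose part in Lcn2 was not tested. Inside cluster 11 Hp was 539.6 CPM in MI-E and 495.3 in MI, Lcn2 94 and 67.2, and Slc7a11 635.9 and 539.4, each within 1.5-fold. MI-E over Sham gave 20 higher and 7 lower of 52, beside 27.6% and 18.1% of all measured genes, with Nr1h3, Hp, Slc48a1 and Slc7a11 highest and Cd163, Cp, Slc11a2 and Maf lowest.

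**Figure D5:**
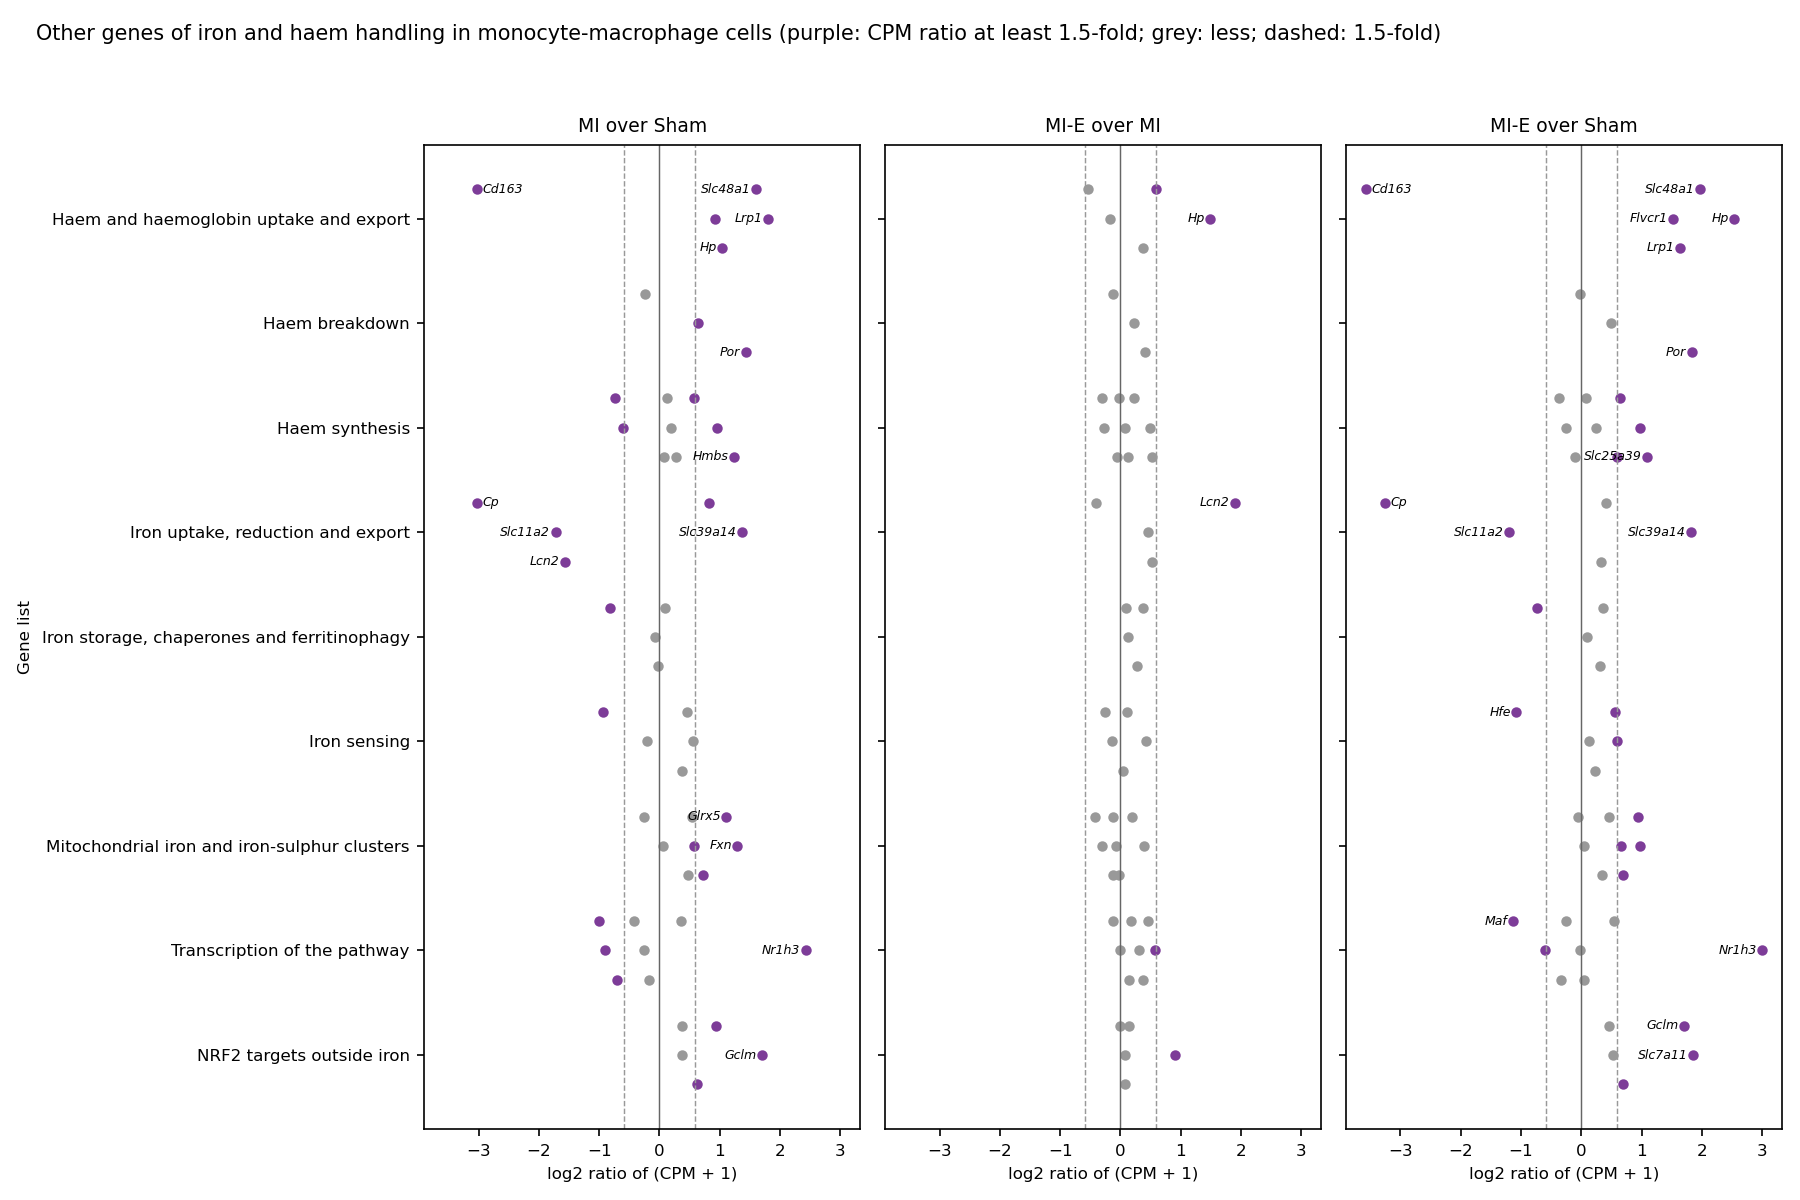
Log2 ratio of (CPM + 1) in monocyte-macrophage cells for each measured gene of 9 lists, in 3 comparisons; points at least 1.5-fold apart in CPM are purple and the others grey, and genes more than 1 log2 unit from 0 are named. Points spread to both sides in both comparisons with Sham, from Cd163 at -3.03 to Nr1h3 at 2.43 for MI, and gather near 0 for MI-E over MI.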

How the data were processed

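Heart immune cells were measured in 3 libraries, 1 per group. The authors deposited raw UMI counts per gene and barcode, with Cell Ranger 5.0.1 and mm10 named in the submitters' processing notes; which annotation release they used is not given there. The members and lists were chosen with earlier results of these data known.

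Barcodes with under 200 genes, or over 10% of UMIs from mitochondrial genes, were dropped. Scrublet (scanpy 1.11.5) marked 1, 2 and 0 doublets by its automatic threshold, so the top scores at 0.8% per 1000 barcodes were removed (1032, 662 and 1292 barcodes). The libraries were clustered together without integration (2000 variable genes, 30 components, 15 neighbours, Leiden resolution 1), giving 24 clusters. A cluster was named from its best-scoring marker list, and stayed unnamed where genes of another class led it or where its median UMI count was below the low-UMI limit (its library's median divided by 3) with fewer than 3 own markers among 10 leading genes; these thresholds were set after the clusters were seen. Lists were summed only as markers, and heat shock genes were added after seeing the data.

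UMIs were summed per class, scaled to CPM and given exact Poisson intervals, ratios with the exact interval of a pair of counts, shares with Clopper-Pearson intervals. Reads are not replicates, so intervals cover counting error only. Log2 ratios are of CPM + 1. Named were all 8 members, the 4 highest and 4 lowest listed pathway genes per comparison in monocyte-macrophage cells, and the 2 genes most like each member among those reaching 50 CPM. Other genes were named after their values were seen. Calculations were tested on simulated data. Raw reads were not used here.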

Additional observations from a re-analysis of the deposited data

Results flagged for a closer look

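These results stand out because the same comparison gave opposite directions in different cells. With 1 library per group the differences were not tested. Slc40a1 had a log2 ratio of MI over Sham 2.13 units lower in neutrophils than in monocyte-macrophage cells (a difference of -2.13), and for MI-E over Sham the difference was -1.86. For Tfrc the difference ran the other way, 3.15 in MI and 2.97 in MI-E, each over Sham. Blvrb of dendritic cells differed from that of monocyte-macrophage cells by 1.44 for MI-E over Sham, and the dendritic ratio changed sign with libraries clustered alone.

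Inside the monocyte-macrophage cells, the log2 ratio of Hmox1 for MI over Sham was 2.94 higher in cluster 13 than in cluster 4 and 2.65 higher than in cluster 11. For MI-E over Sham it was 3.05 higher than in cluster 11 and also 3.05 higher than in cluster 15. Cluster 13 holds 220 Sham cells and cluster 4 only 57 MI cells.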

How the results depend on the processing

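Alternatives were other scaling (TMM factors), no filter on low genes, a 2-fold criterion, CPM + 10, cells weighted equally, doublets kept, at most 5% mitochondrial UMIs, the iron genes left out of clustering, low-UMI clusters added, each library clustered alone, matched clusters only and, chosen after seeing the data, the Arg1-led cluster added. Each member ratio was paired with each alternative run for it, giving 1336 pairs. Sign changes were counted only for ratios reported as higher or lower, and 13 pairs changed sign in this way. The 1336 also include pairs of ratios not so reported, so 13 of 1336 understates how often a reported ratio changed sign. Of the rest, 897 stayed within the counting interval of the reported value and 426 moved outside it. Sign changes of smaller ratios are among these and were not counted apart. No paired analysis was possible because each group has 1 library, and for the same reason no replicate could be left out. In monocyte-macrophage cells, MI over Sham gave 1 member higher instead of 2 at 2-fold (Fth1), in matched clusters (Slc40a1) and with libraries clustered alone (Fth1), and 1 lower instead of 2 in matched clusters (Trf). MI-E over MI gave 1 higher instead of 0 with libraries clustered alone (Slc40a1). MI-E over Sham gave 1 higher instead of 2 at 2-fold, with cells weighted equally, the Arg1-led cluster added, doublets kept, 5% mitochondrial UMIs, iron genes left out or libraries clustered alone (Fth1 each time), and in matched clusters 1 higher (Slc40a1) and 1 lower instead of 3 (Trf). In neutrophils, MI over Sham gave 2 lower instead of 4 at 2-fold. MI-E over MI gave 0 lower instead of 1 at 2-fold and 1 higher instead of 0 with TMM (Trf). MI-E over Sham gave 2 higher instead of 1 with doublets kept. Log2 ratios reported as higher or lower changed sign in matched clusters for MI-E over Sham in monocyte-macrophage cells (Blvrb 0.14, Tfrc 0.18). With libraries clustered alone, they did so for Slc40a1 in monocyte-macrophage cells (MI over Sham, -0.37), Blvrb in dendritic cells (-1.16 for MI and -1.05 for MI-E over Sham), Trf in T cells (0.90 and 0.53) and Blvrb in NK cells (MI-E over Sham, 0.16). With doublets kept, Blvrb did so in T cells (0.29 for MI over Sham, -0.63 for MI-E over MI) and NK cells (1.46 for MI-E over Sham). Slc11a1 of endothelial cells, MI-E over Sham, was 1.12 with doublets kept and 0.34 at 5% mitochondrial UMIs. The cause of these changes was not tested, other than the smaller sets of clusters or the stricter fold that an alternative itself imposes. Several alternatives also changed which cells made up the class. The 4238 MI-E monocyte-macrophage cells became 6768 with doublets kept, 6204 at 5% mitochondrial UMIs and 6190 with iron genes left out. With libraries clustered alone they became 6276, while MI went only from 5177 to 5285. The Arg1-led cluster held 1821 MI-E cells, and its part was not tested. Depth limits Tfrc and Blvrb in neutrophils and all members but ferritin in T and NK cells.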
